A study of Mus musculus with 6 samples.

Results

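Aquaporins are membrane channels for water, and some of them also carry glycerol. The 8 genes described here are Aqp1, Aqp2, Aqp3, Aqp4, Aqp6, Aqp7, Aqp9 and Aqp11, chosen by symbol because each is tied to a segment of the nephron or, for Aqp9, to leukocytes. They are 8 of the 46603 genes in the deposited count table. The rule uses symbols and no measured value, but it was set with earlier results of these data known. RNA-Seq was carried out on renal CD11B+ cells, which are mainly monocytes, macrophages and granulocytes, isolated with magnetic beads from 10- to 12-week-old male mice on day 3 after IRI-AKI (bilateral ischemia-reperfusion injury with a clamp time of 28 minutes). Libraries came from 3 PTEC DN RAR mice (genotype PEPCK CRE+; Rosa26-LSL-RARaT403X) and 3 Cre- control mice (genotype PEPCK CRE-; Rosa26-LSL-RARaT403X), with 1 library per mouse. All 6 mice therefore carried the allele for a truncated, dominant negative retinoic acid receptor behind a stop cassette, and all 6 had the injury. No uninjured kidneys were analysed here. PEPCK-Cre is used to remove the cassette in proximal tubular epithelial cells (PTECs), while the RNA was taken from CD11B+ cells, and the Cre line was on a mixed background.

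In the kidney, Aqp1 lets water cross the proximal tubule and thin descending limb, while Aqp2, moved to the apical membrane under vasopressin, and the basolateral Aqp3 and Aqp4 set water recovery in the collecting duct. Aqp7 carries glycerol as well as water in the last part of the proximal tubule, Aqp6 lies in vesicles of intercalated cells, and Aqp11 lies inside proximal tubule cells. Aqp9, a glycerol and solute channel, is known in leukocytes and liver. Most of the set is thus known from epithelium, and which cells gave the reads measured here was not tested.

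Promoter windows are shown for the genes tied to the proximal tubule, the segment in which the dominant negative receptor was expressed, and for Aqp2 as the principal cell gene. Each runs from 250 bases before to 50 bases after a transcription start, is written 5′ to 3′ on the strand of the gene, and comes from RefSeq on GRCm38.p6. The table held windows for 7 of the 8 genes. The window of Aqp1 lies at chr6:55336049-55336348 (plus strand), that of Aqp11 at chr7:97738198-97738497 (minus strand), that of the second Aqp7 start at chr4:41047913-41048212 (minus strand) and that of Aqp2 at chr15:99578806-99579105 (plus strand). In GENCODE, the source of the gene coordinates given below, Aqp1 starts at 55336432, after the end of its window. The gene Aqp7 has a first window as well, at chr4:41048087-41048386, and the second was printed after its matches had been seen. Capitals mark matches, on either strand, to the motifs named in the following paragraph.
Aqp1: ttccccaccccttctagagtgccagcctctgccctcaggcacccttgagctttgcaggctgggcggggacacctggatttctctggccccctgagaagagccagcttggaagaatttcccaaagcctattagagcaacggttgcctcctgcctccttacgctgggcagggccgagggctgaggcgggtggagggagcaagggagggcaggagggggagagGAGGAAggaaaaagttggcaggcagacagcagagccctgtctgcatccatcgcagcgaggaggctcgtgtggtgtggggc
Aqp11: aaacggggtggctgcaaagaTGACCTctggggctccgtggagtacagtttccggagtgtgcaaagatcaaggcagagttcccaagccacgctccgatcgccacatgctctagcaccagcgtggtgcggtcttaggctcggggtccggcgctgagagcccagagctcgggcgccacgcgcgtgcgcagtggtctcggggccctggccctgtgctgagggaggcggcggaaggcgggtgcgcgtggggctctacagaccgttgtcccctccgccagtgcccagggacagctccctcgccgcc
Aqp7: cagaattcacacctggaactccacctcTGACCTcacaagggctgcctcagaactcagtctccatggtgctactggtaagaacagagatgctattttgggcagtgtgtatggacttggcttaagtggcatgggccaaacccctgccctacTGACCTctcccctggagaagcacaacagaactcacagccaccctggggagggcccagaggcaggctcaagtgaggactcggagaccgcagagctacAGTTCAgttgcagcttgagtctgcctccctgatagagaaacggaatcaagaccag
Aqp2: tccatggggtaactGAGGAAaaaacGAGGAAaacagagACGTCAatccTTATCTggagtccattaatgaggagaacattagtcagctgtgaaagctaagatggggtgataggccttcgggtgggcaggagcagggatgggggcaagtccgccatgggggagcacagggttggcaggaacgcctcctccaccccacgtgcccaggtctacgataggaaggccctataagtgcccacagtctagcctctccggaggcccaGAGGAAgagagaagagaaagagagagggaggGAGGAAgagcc

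The motifs searched were the nuclear receptor hexamer AGGTCA and its retinoic acid receptor variant AGTTCA, the GATA motifs AGATAA and TGATAA, the HNF1 motif GTTAAT, the core of the cyclic AMP response element TGACGT, the ETS core GAGGAA and the TATA box TATAAA. Among 32544 distinct promoter windows of the same length, AGGTCA was found in 16.2%, AGTTCA in 14.0%, AGATAA in 11.2%, TGATAA in 8.91%, GTTAAT in 7.13%, TGACGT in 7.55%, GAGGAA in 28.1% and TATAAA in 13.6%. In the second Aqp7 window AGGTCA occurred at 2 places and AGTTCA at 1, the latter starting 5 bases before the transcription start. The first Aqp7 window, which overlaps it, held the nuclear receptor hexamer, the first of the GATA motifs and the ETS core at 1 place each, and not the retinoic acid receptor variant. AGGTCA occurred at 1 place in the Aqp11 window. The Aqp1 window held only the ETS core. The Aqp2 window held the ETS core at 4 places, together with AGATAA and TGACGT, motifs of the GATA and CREB factor families that are known for the control of this gene. Short motifs of this kind match often, and a match is a description of the letters only.

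Gene counts summed to between 29318041 and 40741507 reads in Cre- control libraries and between 42113139 and 46517005 in PTEC DN RAR libraries, so that 3 reads corresponded to between 0.0636 and 0.101 CPM (counts scaled by TMM to a common library size). Itgam, which encodes CD11B, measured between 1737 and 1995 CPM in Cre- control libraries and between 980.3 and 1366 in PTEC DN RAR libraries. Mitochondrial transcripts took 5.03% to 8.77% and 10.4% to 12.1% of gene counts, respectively. Rara, the gene for the receptor whose truncated form was used, measured 45.4, 35.3 and 45.1 CPM in Cre- controls and 30.7, 31.5 and 37.6 CPM in PTEC DN RAR mice (log2 fold change -0.33 ± 0.13 SE, edgeR adjusted p = 0.0628). The counts give no separate value for the truncated receptor.

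All 8 aquaporins passed the filter on low counts. Of these, 5 rose in PTEC DN RAR mice (Aqp1, Aqp3, Aqp6, Aqp7 and Aqp11) by the quasi-likelihood test of edgeR, with p-values adjusted after Benjamini and Hochberg for all 15440 genes tested and a limit of 0.05. Among all genes tested, 23.6% rose and 17.1% fell by the same rule. None of the 8 fell by edgeR as set here or by limma-voom. Aqp9 was lower in edgeR at an unadjusted p under 0.05, and it was called lower by DESeq2 and under several other settings of edgeR. The CPM values of the same 5 genes did not overlap between genotypes, with each PTEC DN RAR library above each control, a pattern found in 29.2% of genes tested, and 0 of the 8 were lower in every PTEC DN RAR library, against 24.2% of genes tested. The median log2 fold change of the 8 was 1.11, beside 0.04 over all genes tested. When libraries were scaled on 26 pan-leukocyte genes in place of TMM, the median of all genes moved up by 0.25, the share of all calls that were higher moved from 58.0% to 89.9%, and Aqp2 joined the genes called. Leaving out Cre- control replicate 2, Cre- control replicate 3 or PTEC DN RAR replicate 3 left 3 of the 8 called higher.

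**Figure D1:**
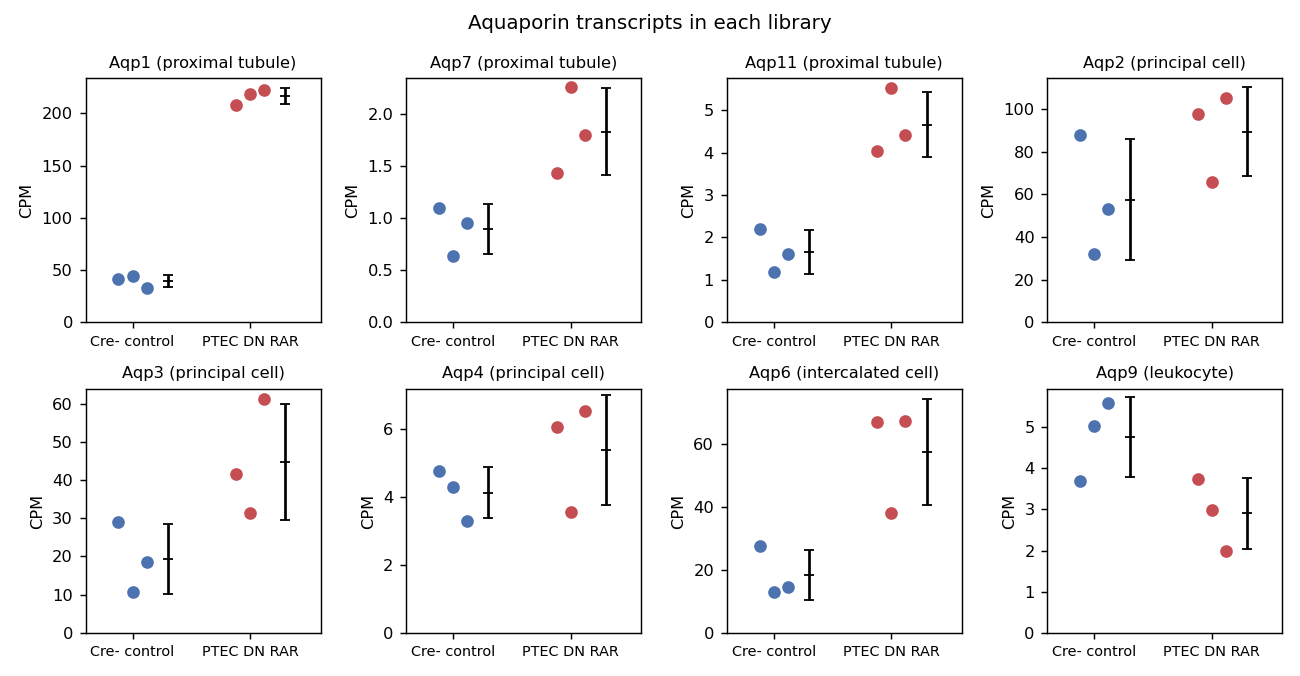
Each panel plots the CPM (TMM scaled, linear axis from 0) of 1 aquaporin in the 3 Cre- control (blue) and 3 PTEC DN RAR (red) libraries in replicate order, with the mean and SD in black. Aqp1 lies between 32.5 and 44.3 CPM in controls and between 208 and 223 CPM in PTEC DN RAR mice, while the groups of Aqp2, Aqp4 and Aqp9 overlap.

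Aqp1, the main water channel of the proximal tubule, rose the most of the 8. Aqp1 (ENSMUSG00000004655, chromosome 6 of GRCm38 from 55336432 to 55348555, plus strand) measured 41.5, 44.3 and 32.5 CPM in Cre- control replicates 1, 2 and 3, and 208, 219 and 223 CPM in PTEC DN RAR replicates 1, 2 and 3. The groups were far apart, with little spread within either. The rise was 5.49-fold, or 2.46 ± 0.12 on the log2 scale (SE, edgeR adjusted p = 9.29e-05), and 0.997% of genes tested had a larger one. The call was kept under all 14 alternative settings, with log2 fold changes from 2.29 to 2.72. In bulk RNA of this kind, a change in the number of cells of a type and a change in RNA per cell cannot be told apart.

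Aqp11 and Aqp7, the other proximal tubule members, rose from far lower levels. Aqp11 (ENSMUSG00000042797, chromosome 7 from 97724006 to 97738289, minus strand), a channel of intracellular membranes, measured 2.20, 1.17 and 1.62 CPM in Cre- controls and 4.04, 5.54 and 4.43 CPM in PTEC DN RAR mice. The ranges did not overlap, and the log2 fold change was 1.48 ± 0.26 (SE, edgeR adjusted p = 0.00312), called under all 14 alternatives. Aqp7 (ENSMUSG00000028427, chromosome 4 from 41033074 to 41048139, minus strand) measured 1.10, 0.637 and 0.950 CPM in Cre- controls and 1.43, 2.26 and 1.80 CPM in PTEC DN RAR mice, from 19 to 43 and from 60 to 96 reads per library. Its ranges did not overlap either, although the gap between the nearest libraries was small. The log2 fold change was 1.02 ± 0.30 (SE, edgeR adjusted p = 0.0260). This call was lost without Cre- control replicate 2 (0.79, adjusted p = 0.0929), Cre- control replicate 3 (1.01, adjusted p = 0.0812), PTEC DN RAR replicate 2 (0.84, adjusted p = 0.0860) or PTEC DN RAR replicate 3 (0.99, adjusted p = 0.0597).

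The proximal tubule as a whole moved in the same libraries. Of 20 proximal tubule marker genes, 19 rose and 0 fell, with a median log2 fold change of 1.71, and the summed level of the 20 was 1315 to 1597 CPM in Cre- controls and 3096 to 4688 CPM in PTEC DN RAR mice. Slc34a1, the phosphate transporter of this segment, rose by 2.07 on the log2 scale (edgeR adjusted p = 0.000275). The other abundant markers, Gatm, an enzyme of creatine synthesis, and Acsm2, an acyl-CoA synthetase, rose by 0.39 (edgeR adjusted p = 0.0448) and 2.05 (edgeR adjusted p = 0.000303). Pck1, the gene whose promoter drives the Cre and a proximal tubule gene itself, rose by 2.46 (edgeR adjusted p = 0.000716). To place each aquaporin against its segment, the mean log2 CPM of the list was subtracted from that of the gene in the same library. For Aqp1 this difference was -0.12, 0.34 and -0.55 in Cre- controls, against 1.05, 0.55 and 0.90 in PTEC DN RAR mice, so that Aqp1 was higher by 0.94 relative to the list, without overlap. For Aqp7 the difference was lower by 0.53, again without overlap, and for Aqp11 it moved by -0.04 with overlapping groups. Without Cre- control replicate 1 the Aqp11 difference turned to 0.14 (exact permutation p = 0.1). Overlap here refers to the libraries and not to the genes of the list. The log2 fold changes of the 20 markers ran from 0.03 (Napsa) to 2.59 (Slc22a8). Those of Aqp1, Aqp7 and Aqp11 all lay within this range. By two-sided exact permutation test p was 0.1 for Aqp1 and for Aqp7, the smallest that 3 mice against 3 allow, and 1.0 for Aqp11. Adjusted over the 11 pairs of gene and list compared here and in the following paragraphs, the exact p was 0.22 for every pair without overlap and 0.733 or 1.0 for the others.

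Set directly against Aqp1 in the same library, the change was -1.47 for Aqp7 and -0.98 for Aqp11 on the log2 scale (PTEC DN RAR minus Cre- control), in each case without overlap (exact permutation p = 0.1 each, 0.133 adjusted over 4 pairs of members). Aqp1 is also known in the endothelium of the vasa recta and in red cells. All 11 endothelial markers rose, with a median log2 fold change of 1.43, among them Eng (0.63), Ptprb (1.61) and Kdr (1.34), and Aqp1 was higher by 1.07 relative to their mean (exact permutation p = 0.1). Of the red cell markers, 8 were found in the table and 4 passed the filter. None of the 4 was called in either direction, their median was -0.66, and the summed level of the 8 was 1.44 to 13.7 CPM in Cre- controls and 1.91 to 5.71 CPM in PTEC DN RAR mice. Relative to these 4 markers Aqp1 was higher by 2.65 (exact permutation p = 0.1). With a prior count of 0.25 in place of 2 this red cell difference was 2.58 (exact permutation p = 0.2). Without 1 mouse it ranged from 1.91 to 3.54. Red cell markers lay near the floor of 3 reads in some libraries, as Hba-a1 at 0.0335 CPM in Cre- control replicate 2, where the floor was 0.101 CPM. Of 6 thin limb markers, 4 rose, with a median of 1.91. The part that each of these sources, or the CD11B+ cells themselves, had in the Aqp1 reads was not tested.

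**Figure D2:**
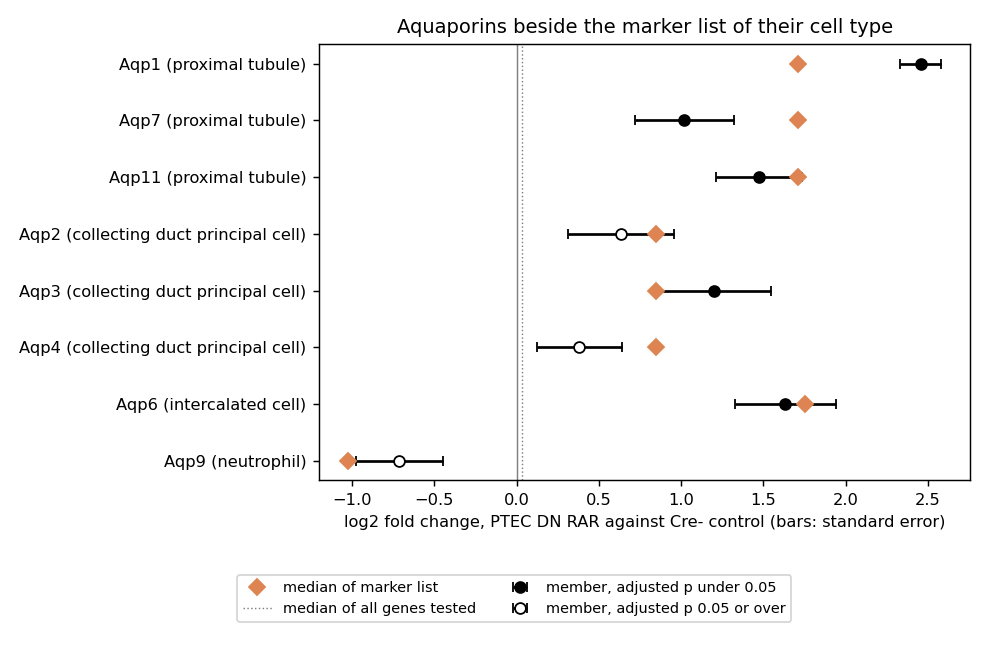
Circles give the log2 fold change of each aquaporin, PTEC DN RAR against Cre- control, with its standard error from edgeR, filled where the adjusted p was under 0.05 and open where it was not, and diamonds give the median of the marker list named at the left. Aqp1 lies at 2.46 against 1.71 for its list, Aqp7 at 1.02 against the same 1.71, and Aqp9 at -0.71 against -1.02. The dotted line is the median of all genes tested, 0.04.

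Among the principal cell members, Aqp3 rose, and Aqp2 and Aqp4 did not pass the test. Aqp2 (ENSMUSG00000023013, chromosome 15 from 99579055 to 99584547, plus strand), the vasopressin-regulated apical channel, measured 87.8, 31.9 and 53.0 CPM in Cre- controls and 97.6, 65.7 and 105 CPM in PTEC DN RAR mice. Cre- control replicate 1 lay within the PTEC DN RAR range and the other controls below it. The log2 fold change was 0.63 ± 0.32 (SE, edgeR adjusted p = 0.149). Without Cre- control replicate 1 it was 1.07 and called (adjusted p = 0.0147), whereas without Cre- control replicate 2 it was 0.30 (adjusted p = 0.376) and without PTEC DN RAR replicate 3 it was 0.46 (adjusted p = 0.354). Cre- control replicate 1 also had the highest summed level of the 8 principal cell markers among the controls, 172 CPM beside 63.6 and 94.7, within the range of 105 to 300.2 CPM in PTEC DN RAR mice. Aqp2 was also called with scaling on pan-leukocyte genes (0.90, adjusted p = 0.0467).

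Aqp3 (ENSMUSG00000028435, chromosome 4 from 41092722 to 41098183, minus strand), the basolateral water and glycerol channel, measured 29.0, 10.6 and 18.6 CPM in Cre- controls and 41.6, 31.4 and 61.3 CPM in PTEC DN RAR mice. Every PTEC DN RAR library lay above every control, Cre- control replicate 1 being the closest. Its log2 fold change was 1.20 ± 0.35 (SE, edgeR adjusted p = 0.0241). The call was lost without Cre- control replicate 2 (0.87, adjusted p = 0.0529), Cre- control replicate 3 (1.13, adjusted p = 0.0812) or PTEC DN RAR replicate 3 (0.86, adjusted p = 0.0865). Aqp4 (ENSMUSG00000024411, chromosome 18 from 15389496 to 15410982, minus strand), the second basolateral channel of these cells, measured 4.77, 4.29 and 3.29 CPM in Cre- controls and 6.04, 3.53 and 6.53 CPM in PTEC DN RAR mice. The groups overlapped through PTEC DN RAR replicate 2, and the log2 fold change was 0.38 ± 0.26 (SE, edgeR adjusted p = 0.264). Without PTEC DN RAR replicate 2 it was 0.61 (adjusted p = 0.0567), without PTEC DN RAR replicate 3 it was 0.17 (adjusted p = 0.661) and without Cre- control replicate 3 it was 0.20 (adjusted p = 0.632).

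The 8 other principal cell markers had a median log2 fold change of 0.85, and 2 of them rose (Gata3 and Apela, named because they were called) while 0 fell. The 25.0% that rose is close to the 23.6% of all genes tested. The marker with the most reads, Hsd11b2, which protects the mineralocorticoid receptor from glucocorticoids, changed by 0.65 (edgeR adjusted p = 0.295), and the sodium channel subunits Scnn1b and Scnn1g by 0.92 and 0.78 (edgeR adjusted p = 0.108 and 0.144). Relative to the mean of this list, Aqp3 was higher by 0.52 in PTEC DN RAR mice without overlap (exact permutation p = 0.1), Aqp2 moved by -0.02 (exact permutation p = 1.0) and Aqp4 by -0.40 (exact permutation p = 0.5), both with overlap. The ratio of Aqp3 to Aqp2 was also set side by side within libraries. The log2 CPM of Aqp3 minus that of Aqp2 was -1.60, -1.58 and -1.51 in Cre- controls, against -1.23, -1.06 and -0.78 in PTEC DN RAR mice, a difference of 0.54 without overlap and with little spread among the controls (exact permutation p = 0.1, 0.133 adjusted over 4 pairs). Thus Cre- control replicate 1, which was high in both genes, did not stand apart in their ratio. The same ratio for Aqp4 moved by -0.38 with overlap (exact permutation p = 0.4).

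Aqp6, which unlike most aquaporins passes anions, rose, as did the intercalated cell markers. Aqp6 (ENSMUSG00000043144, chromosome 15 from 99601400 to 99605477, plus strand, downstream of Aqp2 on the same strand) measured 27.5, 13.1 and 14.7 CPM in Cre- controls and 66.9, 38.0 and 67.4 CPM in PTEC DN RAR mice. The groups did not overlap, and Cre- control replicate 1 was again the highest control and PTEC DN RAR replicate 2 the lowest of its group. The log2 fold change was 1.63 ± 0.31 (SE, edgeR adjusted p = 0.00410), called under all 14 alternatives. All 8 intercalated cell markers rose, with a median log2 fold change of 1.75, among them Atp6v1b1, a subunit of the proton pump (1.78, edgeR adjusted p = 0.00391), and the anion exchangers Slc26a4 (1.73) and Slc4a9 (1.67). Relative to their mean, Aqp6 moved by -0.16 with overlapping groups (exact permutation p = 0.6).

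Aqp9 was the only one of the 8 with a negative log2 fold change, and it did not pass the test. Aqp9 (ENSMUSG00000032204, chromosome 9 from 71110659 to 71168682, minus strand) measured 3.69, 5.03 and 5.58 CPM in Cre- controls and 3.73, 2.99 and 1.99 CPM in PTEC DN RAR mice. The groups overlapped, because Cre- control replicate 1 lay just below PTEC DN RAR replicate 1. The log2 fold change was -0.71 ± 0.27 (SE, edgeR adjusted p = 0.0596). It was called lower by DESeq2 (-0.76, adjusted p = 0.0197), and by edgeR without Cre- control replicate 1 (-0.88, adjusted p = 0.0360) or without PTEC DN RAR replicate 1 (-0.94, adjusted p = 0.0403). In edgeR it was also called with DESeq2 size factors, without mitochondrial genes and with no filter on low counts (adjusted p = 0.0457, 0.0478 and 0.0302). Of 10 neutrophil markers, 5 fell and 0 rose, with a median log2 fold change of -1.02, and S100a9, a calcium-binding alarmin, went from 158, 289 and 360 CPM to 126, 104 and 84.2 CPM (-1.36, edgeR adjusted p = 0.00544). The other abundant neutrophil markers were S100a8 (-1.32, edgeR adjusted p = 0.00805) and Csf3r, the G-CSF receptor, which was not called (-0.14, edgeR adjusted p = 0.346). Of 9 markers of infiltrating monocytes, 8 fell and 0 rose, with a median of -1.07, among them Ccr2 (-0.73), Fn1 (-1.80) and F13a1 (-2.35). Relative to the neutrophil list Aqp9 moved by 0.08 (exact permutation p = 0.6), and relative to the monocyte list by 0.51 (exact permutation p = 0.4), both with overlapping groups. The latter difference was 0.18 without PTEC DN RAR replicate 1, 0.31 without Cre- control replicate 1 and 0.89 without PTEC DN RAR replicate 3 (exact permutation p = 0.7, 0.7 and 0.1). Of 9 resident macrophage markers, 1 rose and 1 fell, with a median of 0.14.

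**Figure D3:**
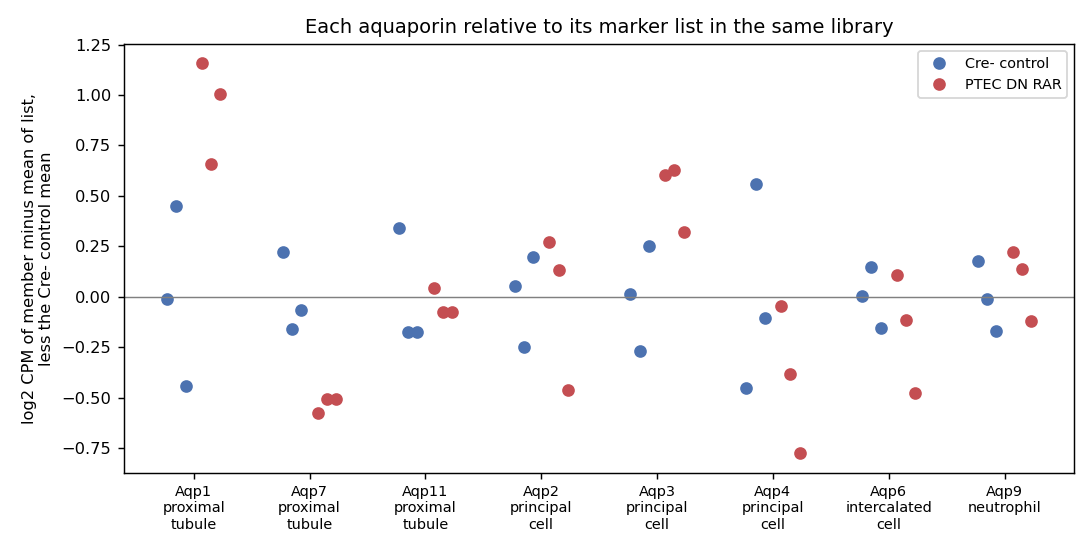
Points give, for each library, the log2 CPM of an aquaporin minus the mean log2 CPM of its marker list in that library, less the Cre- control mean, with Cre- controls in blue and PTEC DN RAR mice in red. PTEC DN RAR points lie above all controls for Aqp1 and Aqp3 and below them for Aqp7. For the other 5 genes the groups overlap.

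Markers of other renal cells were also measured in these CD11B+ preparations. All 9 markers of the thick ascending limb, a segment with no aquaporin among the 8, rose with a median log2 fold change of 2.32, and its most abundant transcript, Umod, measured 865 to 1263 CPM in Cre- controls and 2894 to 5708 CPM in PTEC DN RAR mice. In the distal convoluted and connecting tubule 5 of 6 markers rose, with a median of 2.18, and in podocytes 7 of 8, with a median of 1.33. Stromal markers rose in 4 of 7 cases (57.1%), with a median of 1.01. Of 6 urothelial markers 3 passed the filter, with means of 0.44 to 0.52 CPM over all libraries, and 1 of them rose (33.3%). Among all genes tested, 23.6% rose. The part of these cells or their RNA in the aquaporin values was not tested.

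Compared per kilobase of merged exons, the order of the genes differed between genotypes. In Cre- controls Aqp2 was the highest at 40.6 ± 19.9 CPM per kb (SD, n = 3), followed by Aqp1 at 15.0 ± 2.36, Aqp3 at 10.6 ± 5.03 and Aqp6 at 7.61 ± 3.27. The ranges of neighbours among these last 3 overlapped, whereas Aqp2 lay above them in every library. In PTEC DN RAR mice Aqp1 was the highest at 82.4 ± 2.89 CPM per kb (SD, n = 3), followed by Aqp2 at 63.0 ± 14.7, and then by Aqp3 at 24.5 ± 8.29 and Aqp6 at 23.7 ± 6.93, which overlapped. The other 4 genes lay at 1.15 CPM per kb or below in both genotypes, in the order Aqp9, Aqp4, Aqp7 and Aqp11 in Cre- controls, of which only Aqp7 and Aqp11 overlapped, and in the order Aqp4, Aqp9, Aqp7 and Aqp11 in PTEC DN RAR mice, with each neighbour overlapping the next. The value of Aqp11 rests on a merged exon length of 9418 bases, the longest of the 8.

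The reads on the 8 genes summed to 198, 111 and 130 CPM in Cre- controls and to 429, 368 and 471 CPM in PTEC DN RAR mice. Aqp1 took 21.0% to 39.9% of this sum in Cre- controls and 47.3% to 59.4% in PTEC DN RAR mice. The share of Aqp2 was 28.7% to 44.4% and 17.9% to 22.7%, respectively, so that the shares of both genes did not overlap between genotypes and moved in opposite directions although the mean CPM of Aqp2 was not lower. Aqp6 kept to 11.3% to 13.9% and 10.3% to 15.6%. Aqp9 took 1.87% to 4.53% in Cre- controls and 0.423% to 0.868% in PTEC DN RAR mice, while its CPM values overlapped. The sum was higher in PTEC DN RAR mice, so a share can be lower without a lower CPM.

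**Figure D4:**
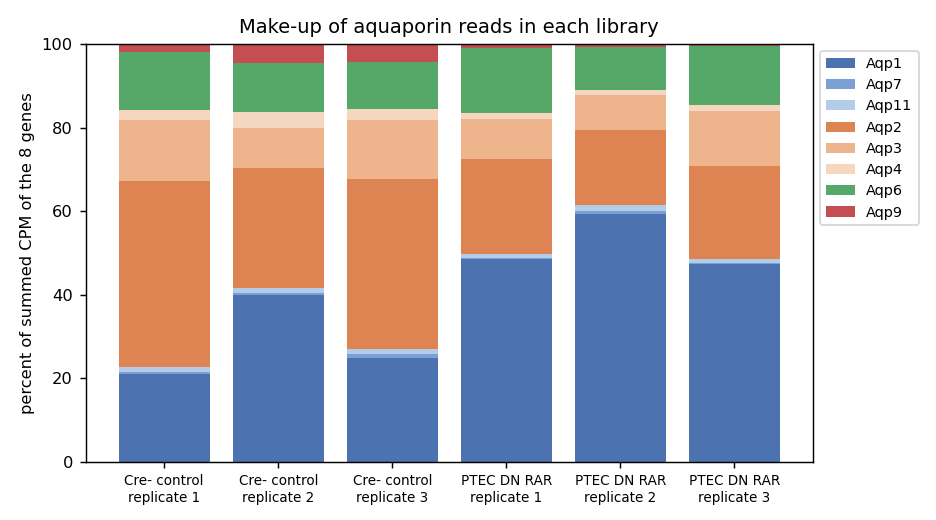
Stacked bars give the percent of the summed CPM of the 8 aquaporins that each gene took in each library, on a linear axis from 0 to 100. Aqp1 (dark blue) fills 21.0% to 39.9% of the bars of Cre- controls and 47.3% to 59.4% of those of PTEC DN RAR mice, and Aqp2 (dark orange) 28.7% to 44.4% and 17.9% to 22.7%.

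The other aquaporins of the table were at or near 0 and were not tested. Mip, the lens channel, had 0 reads in all libraries, which allows up to 0.101 CPM in the shallowest of them. Aqp5, a gland channel whose gene lies between Aqp2 and Aqp6, had 1 read in PTEC DN RAR replicate 3 and 0 elsewhere. Aqp8 had 2, 0 and 0 reads in Cre- controls, against 3, 3 and 3 in PTEC DN RAR mice, and Aqp12 had 3, 1 and 0 reads and 0, 0 and 2 reads. The longest run of bases that transcripts of different aquaporins shared exactly was 25, between Aqp7 and Aqp11, and no exon bases of the 8 overlapped another annotated gene.

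Vasopressin acts through its V2 receptor and cyclic AMP to place Aqp2 in the membrane and to keep up its transcription. Of 25 genes of this signalling and of Aqp2 trafficking, 7 rose and 2 fell, with a median log2 fold change of 0.29. These are 28.0% and 8.0% of the list, beside 23.6% and 17.1% of all genes tested, so the share that rose is near that of all genes. The genes with the most reads, Gnas, Prkacb and Snap23, which leukocytes also express, changed by 0.17, -0.22 and -0.14 (edgeR adjusted p = 0.195, 0.0922 and 0.274). The genes called are named after their values were seen. Those that rose were Adcy6, the main adenylyl cyclase of principal cells (1.57, adjusted p = 0.000975), the transcription factors Gata2 (1.16), Gata3 (1.23), Tfcp2l1 (1.39) and Nr3c2, the mineralocorticoid receptor (1.44), the vesicle protein Vamp2 (0.75) and the motor Myo5b (1.51). Those that fell were the cyclic AMP response factors Creb1 (-0.47) and Crem (-0.56). The receptor Avpr2 had a log2 fold change of 1.22 (edgeR adjusted p = 0.0512).

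Hypertonicity raises Aqp1 and Aqp2 in cultured renal cells, and 9 genes of the tonicity response were therefore examined. Of these, 4 rose (44.4%, beside 23.6% of all genes tested) and 0 fell, with a median of 0.33. Nfat5, the tonicity-responsive transcription factor, measured 62.4, 79.3 and 75.3 CPM in Cre- controls and 83.2, 101 and 87.4 CPM in PTEC DN RAR mice, without overlap but short of the threshold (log2 fold change 0.33, edgeR adjusted p = 0.0518). Slc6a6, the taurine transporter and the most abundant of the list, changed by -0.02 and the kinase Sgk1 by -0.32 (edgeR adjusted p = 0.852 and 0.0644). The genes that rose were the osmolyte transporters Slc5a3 (1.82) and Slc6a12 (2.11), the urea transporter gene Slc14a2 (1.47) and Pnpla6 (0.66).

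Aqp3, Aqp7 and Aqp9 carry glycerol, and of 16 genes of glycerol handling 7 rose (43.8%, beside 23.6% of all genes tested) and 1 fell (6.25%, beside 17.1%), with a median log2 fold change of 0.20. Those that rose were Gk, glycerol kinase (0.63), Gpd1, which interconverts glycerol phosphate and dihydroxyacetone phosphate (1.77), Mgll, which frees glycerol from monoglycerides (1.88), Dgat2 (1.23), Pgp (0.41) and the gluconeogenic genes Fbp1 (1.93) and Pck1 (2.46). The gene that fell was Plin2, a lipid droplet coat protein, from 441, 329 and 360 CPM in Cre- controls to 165, 152 and 219 CPM in PTEC DN RAR mice (-1.08, edgeR adjusted p = 0.00149). Pnpla2, the first lipase of triglyceride breakdown, changed by 0.20 (adjusted p = 0.276). Fbp1 is also among the 20 proximal tubule markers, and Gata3, Avpr2 and Elf5 are among both the vasopressin and the principal cell lists, as Slc14a2 is among the tonicity and the thin limb lists.

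The genes whose pattern over the 6 libraries was nearest to that of each aquaporin were found among 13013 genes with a mean of at least 1 CPM, by the root mean square distance between log2 CPM profiles centred on their means. Nearest to Aqp1 were Klhl3, Itih1 and Adamtsl2, at 0.14, 0.19 and 0.19 log2 units. Cldn7, Smim6 and Tspan1 came nearest to Aqp2, at 0.08, 0.14 and 0.15, and Six5, Scg5 and Atp6v1g3 to Aqp3, at 0.07, 0.10 and 0.10. For Aqp6 they were Klhdc8a, Ccdc64 and Pak6, each at 0.11. The neighbours of Aqp11 were Amacr, Habp2 and Ldb2, at 0.07, 0.08 and 0.08, those of Aqp7 were Mmp15, Klrg2 and Adtrp, at 0.09, 0.11 and 0.12, those of Aqp4 were Zfp93, Ppm1j and Efemp1, at 0.08, 0.08 and 0.10, and those of Aqp9 were Ube2t, Stat4 and Tyms, at 0.13, 0.14 and 0.15. Atp6v1g3, a proton pump subunit, is one of the intercalated cell markers used above. With 6 libraries and 13013 genes, near profiles arise readily, and the distances are a description.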

How the data were processed

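Renal CD11B+ cells from 3 PTEC DN RAR and 3 Cre- control mice were profiled by polyA RNA-Seq, and groups follow the labels. The authors deposited raw counts of reads per gene, without normalization. The submitters' processing notes name STAR 2.5.0a, HTSeq 0.6.1, edgeR, limma and GRCm38; annotation release and strand setting are not given in the sources used here. Reads aligned to several places (42.9% to 47.8% of alignments) or overlapping several genes (0.457% to 0.527%) are left out of gene counts. Of 46612 lines, 9 repeated identifiers were collapsed and 27 symbols turned into dates were restored. Coordinates and merged exons are from GENCODE M21.

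Counts were filtered (filterByExpr, minimum count 10), TMM scaled and tested with glmQLFit and glmQLFTest (edgeR 4.0.16, R 4.3.3), and p-values were adjusted by Benjamini-Hochberg for the 15440 genes that passed. The SE is the size of the log2 fold change divided by the square root of F. Marker and member differences used log2 CPM (prior count 2) and two-sided exact permutation tests over mice. Each library counted as a sample because it came from its own mouse, and p-values measure the spread between these 6 mice. A chi-square check of pairs within each genotype found no library entered again under another name. Pairs across genotypes were not checked in this way. Floors of 3 counts cover counting error only, since the reads carry no molecular identifiers.

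Alternatives were DESeq2 1.42.0, limma-voom (limma 3.58.1), other scalings, no filter, a replicate block, a prior count of 0.25, the median of a list in place of its mean, and leaving out each mouse. The test scripts were tested on simulated data. Named genes are the 8 members, the other aquaporins, the 3 genes with the highest mean CPM of each list set against a member, apart from red cells, and of each pathway list (other lists are given mainly by counts), the 3 nearest profiles of each member, Rara and Pck1; others were named after their values were seen. The members and lists were chosen with earlier results of these data known. Tables and figures used matplotlib 3.10.9, scipy 1.17.1 and pandas 2.3.3 under Python 3.11. Of the lists not described in the report, 3 of 7 dendritic cell, 0 of 6 T and NK cell, 1 of 4 B cell and 0 of 26 pan-leukocyte genes rose, and 1, 0, 0 and 10 fell. Over all genes tested the shares were 23.6% and 17.1%.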

Additional observations from a re-analysis of the deposited data

How the results depend on the processing

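The calls of Aqp1, Aqp6 and Aqp11, and the absence of a call for Aqp4, held under all 14 alternatives. The log2 fold change of Aqp2 became called with scaling on pan-leukocyte genes (0.90, adjusted p = 0.0467 by edgeR) and with the replicate block (0.73, adjusted p = 0.0241 by edgeR), and leaving out 1 mouse at a time gave 0.30 to 1.07. That of Aqp3 ranged from 0.86 to 1.61 without 1 mouse. For Aqp7 the replicate block gave 1.01 and ended the call (adjusted p = 0.0583 by edgeR), and leaving out 1 mouse gave 0.79 to 1.20. Aqp9 was called lower by DESeq2 (-0.76), with DESeq2 size factors in edgeR (-0.76), without mitochondrial genes (-0.75) and with no filter on low counts (-0.75), and ranged from -0.94 to -0.54 without 1 mouse. Accordingly, 1 member was called lower under these 4 settings, and without 1 mouse 3 to 6 members were called higher and 0 to 1 lower. Over all genes, 598 were lower with scaling on pan-leukocyte genes in place of 2636. The cause of these moves was not tested.

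The 15 differences of a member from a list or another member gave 135 alternative values, of which 129 kept their direction. The 6 that reversed came from leaving out 1 mouse: the difference of Aqp11 from the proximal tubule list was 0.14 without Cre- control replicate 1 (exact permutation p = 0.1), and over all mice left out it ranged from -0.12 to 0.14. That of Aqp2 from the principal cell list was 0.01, 0.08 and 0.20 without Cre- control replicate 1, Cre- control replicate 3 and PTEC DN RAR replicate 3 (range -0.16 to 0.20). That of Aqp9 from the neutrophil list was -0.0026 without Cre- control replicate 3 (range -0.0026 to 0.18), and that of Aqp4 from Aqp2 was 0.022 without Cre- control replicate 2 (range -0.63 to 0.022). Without 1 mouse, the differences of Aqp4 from the principal cell list, Aqp6 from the intercalated cell list and Aqp9 from the monocyte list ranged from -0.63 to -0.12, from -0.29 to -0.0010 and from 0.18 to 0.89. With 3 mice against 3 no exact permutation p can fall under 0.1. Replicate numbers join different animals, and the deviations of same-numbered libraries correlated at -0.015, 0.211 and 0.029, so the block is a check only. Aqp7 and Aqp11 rest on the fewest reads of the genes called. Genes at a few reads, such as Aqp8, did not pass the filter and were not tested for a change.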
